A study of Mus musculus with 8 samples.

Results

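The genes described here are 42 liver genes of fatty acid oxidation and of the PPARalpha program, taken by name from the first column of a table of 24545 rows, with the copy of the higher sum used where a name was repeated. All 42 names had a row above 0. Acot1 and Acot2 shared 1 row of identical values, so the genes made up 41 rows, and all 41 passed the filter of 1 FPKM in at least 2 libraries. They cover 3 regulators or hormones, 2 genes of fatty acid uptake and activation, 4 of the carnitine shuttle, 8 of the mitochondrial spiral, 3 mitochondrial auxiliary enzymes, 3 of electron transfer, 8 peroxisomal genes, 4 microsomal hydroxylases, 4 acyl-CoA thioesterases, 1 ketone body enzyme and 2 other targets.

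Whole liver of male C57Bl/6J mice was sequenced in 8 libraries, 2 biological replicates in each of 4 groups. Wild-type mice and ApoE-Cyp7a1 transgenic mice were each studied without treatment and after LPS. LPS, the endotoxin of bacterial outer membranes, was injected daily at 1.5 mg/kg over 7 days, as a model of chronic inflammation. The transgene raises Cyp7a1, the enzyme that sets the rate of bile acid synthesis, and is described by the submitters as liver specific. The age of the mice, their feeding state at death, the species of the transgene and whether untreated mice received a vehicle injection are not given in the labels.

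PPARalpha is a nuclear receptor that binds fatty acids and, paired with RXRalpha, switches on the genes that burn them. Long-chain fatty acids are activated to acyl-CoA, carried into mitochondria as carnitine esters and shortened in a repeated 4-step spiral, while very long and branched chains are first shortened in peroxisomes. Omega-hydroxylases of the Cyp4a family in the endoplasmic reticulum start a side route, and in fasting the acetyl-CoA from the spiral is turned into ketone bodies. In liver this program is high during fasting, and its Cyp4a members are classic markers of PPARalpha activity in rodents.

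The FPKM of all features, a fragment density per transcript length and per number of mapped fragments, summed to 439598 to 510011 in untreated and 367131 to 415738 in LPS libraries. The spread between replicates, as the SD of log2 differences over all features tested, was 0.233 to 0.484, lowest in wild type with LPS. Hepatocyte identity was checked with 22 markers, of which 21 had values and Alb was listed at 0 in all libraries. Their summed level was 45199 to 65577 FPKM untreated and 39973 to 44829 FPKM with LPS. Macrophage markers (10 of 10 with values) summed to 138 to 248 FPKM untreated and 1392 to 1587 FPKM with LPS. Neutrophil markers (7 of 8, with Ly6g at 0) summed to 3.99 to 10.2 and 190 to 369 FPKM, and endothelial markers (6 of 6) to 73.0 to 85.1 and 228 to 250 FPKM. Pancreas markers (7 of 7) reached 4825 FPKM in replicate 1 of untreated transgenic, against 78.2 to 1290 FPKM in the other untreated and 24.9 to 189 FPKM in the LPS libraries. The part of cell mixture in the results below was not tested, and in whole tissue fewer cells of a type and less RNA per cell cannot be told apart.

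Most of the 41 rows were lower with LPS. In wild type, 16 of 41 rows fell and 0 rose, with a median log2 difference of -0.64 over the 41 rows and -0.05 over all 11463 features tested. By the same test 5.41% of all features fell and 21.6% changed in either direction. In the transgenic group 26 rows fell and 1 rose, with a median of -0.82 (-0.04 over all features), where 10.5% of all features fell and 26.5% changed. For the average of the LPS difference over both genotypes, 30 rows fell and 1, Cyp4a31, rose, with a median of -0.74. Of all features 15.8% fell, 20.6% rose and 36.4% changed in that comparison. All 4 LPS libraries lay below all 4 untreated libraries in 28 of the 41 rows, which was so for 16.8% of all features. The members held 3.91% to 4.69% of the summed FPKM of untreated libraries and 2.33% to 2.82% of that of LPS libraries.

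Differences are on the log2(FPKM + 1) scale, and a gene is said to have fallen or risen where its limma p, adjusted over all features, was under 0.05. Most of the wild-type calls were lost when either wild-type LPS library was left out. Most of the transgenic calls were lost when either untreated transgenic library was left out. In each of these fits the share of all features that passed dropped too. Most calls for the average over genotypes were kept when any 1 library was left out, while the share of all features that passed varied with the library. The libraries were also centred on gene-wise deviations of the hepatocyte markers, a setting added after seeing the data. This is the centring on the hepatocyte markers meant below unless another is named. It moved the median of all features to 0.46 in wild type, 0.12 in transgenic and 0.28 on average. With it 4, 19 and 16 rows fell and Cyp4a31 rose in each. By that centring 36, 483 and 289 of all 11463 features fell. It ended 14 of the falls on average, those of Acadl, Acadm, Acadvl, Acot12, Acsl1, Creb3l3, Ech1, Eci2, Etfb, Etfdh, Hadh, Hadha, Ppara and Slc25a20. It also ended 7 falls in transgenic, those of Acaa2, Acadl, Acadvl, Acsl1, Cyp4a10, Hadha and Slc25a20, and 12 in wild type, all but those of Cyp4a10, Cyp4a14, Ehhadh and Vnn1. It turned the sign of 15 wild-type and 1 transgenic values and of 4 average values (Acads, Cpt1a, Crat and Pdk4), none of which had passed. The centring planned beforehand, on each library's median marker level, turned 30 wild-type values positive, among them those of the mitochondrial rows that fell. The hepatocyte markers themselves had a median LPS difference of -0.44 in wild type, -0.25 in transgenic and -0.31 on average. Of the 41 rows, 28, 33 and 35 had a lower difference than that median, in the same order. The markers did not move together: on average Trf rose by 0.94 and Otc fell by 1.09. Tat differed by -1.11 in wild type, which did not pass (adjusted p = 0.0815), and rose by 1.83 in transgenic (adjusted p = 0.0126).

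**Figure D1:**
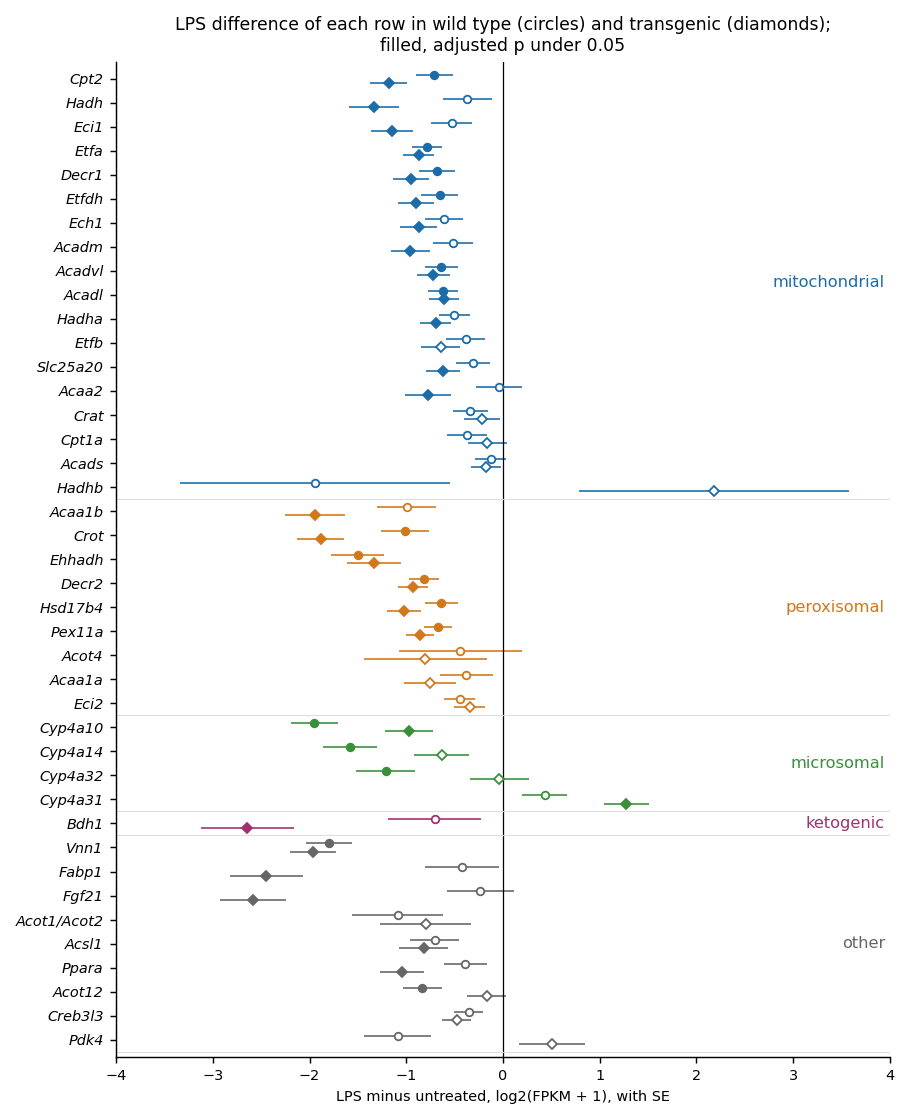
LPS minus untreated difference on the log2(FPKM + 1) scale (horizontal axis) for each of 41 rows, grouped by step, in wild type (circles) and transgenic mice (diamonds), with standard errors; filled symbols passed at an adjusted p under 0.05. Most points lie left of 0, Cyp4a31 lies right of it, and Hadhb has standard errors wider than those of any other row.

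Among the regulators, Ppara itself was lower with LPS. Its values were 41.7 and 35.6 FPKM in untreated wild type, 30.4 and 28.0 in wild type with LPS, 41.6 and 40.8 in untreated transgenic, and 15.2 and 24.8 in transgenic with LPS. All 4 LPS libraries lay below all 4 untreated ones, and replicate 1 of transgenic with LPS was the lowest. The difference was -1.05 in transgenic (SE 0.22, adjusted p = 0.0132), a fall, and -0.39 in wild type (SE 0.22, adjusted p = 0.249), which did not pass. Creb3l3, a membrane-bound transcription factor of liver that works with PPARalpha on fasting genes, fell by 0.42 on average (SE 0.11, adjusted p = 0.0189) and passed in neither genotype alone.

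Fgf21, a fasting hormone secreted by liver and a PPARalpha target, was measured at 4.19 and 3.75 FPKM in untreated wild type and 3.09 and 3.35 with LPS. In transgenic mice it was 13.7 and 9.29 FPKM untreated and 0.374 and 2.05 with LPS, so that both untreated transgenic libraries were the highest of all and both transgenic LPS libraries the lowest. The LPS difference was -2.59 in transgenic (SE 0.35, adjusted p = 0.00181) and -0.24 in wild type (SE 0.35, adjusted p = 0.66).

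Fabp1, the liver fatty acid binding protein that carries fatty acids through the cytosol, had the highest untreated mean of the 41 rows per transcript length. Its values were 5180 and 3378 FPKM in untreated wild type, 3272 and 2975 with LPS, 7508 and 6559 in untreated transgenic, and 875 and 1890 in transgenic with LPS. The wild-type groups were close and the transgenic groups far apart: the differences were -0.42 (SE 0.38, adjusted p = 0.461) and -2.45 (SE 0.38, adjusted p = 0.00353). Cyp4a14 followed at 4420 to 5535 FPKM in the untreated libraries, within the 3378 to 7508 FPKM of Fabp1, so the order of these 2 genes did not exceed their spread. Acsl1, the main long-chain acyl-CoA synthetase of liver, had 447 to 589 FPKM untreated and 252 to 385 FPKM with LPS, a fall of 0.76 on average (SE 0.18, adjusted p = 0.0132).

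Because most members fell with LPS, the promoters given by RefSeq (build GRCm38.p6, 250 bases before to 50 after the start site) were searched for the direct repeat that PPARalpha and RXRalpha bind. It consists of 2 copies of AGGTCA with 1 base between them, on either strand. Windows were given for 34 of the 42 genes, 37 windows in all. An exact repeat was in 0 of the 34 genes and in 0.0481% of all 27025 genes. With up to 1 mismatch in each copy, 4 of 34 genes (11.8%) held a match, and 754 of all genes (2.79%) did. These counts describe letters in a short window.

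The 4 matches are shown because they are the only ones among the members, with the repeat in capitals and 8 bases on each side, read 5′ to 3′ on the strand of the gene. In Fabp1, Acot12 and Etfa the repeat reads on the opposite strand. The Fabp1 repeat has 1 mismatch in all, as has that of Acot12, and those of Etfa and Slc25a20 have 2.
Fabp1, chr6:71199804-71199832, plus strand: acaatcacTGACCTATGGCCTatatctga
Acot12, chr13:91741403-91741431, plus strand: taggacccTGACCTCTCACCTcctaagca
Etfa, chr9:55512300-55512328, minus strand: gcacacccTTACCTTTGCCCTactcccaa
Slc25a20, chr9:108662134-108662162, plus strand: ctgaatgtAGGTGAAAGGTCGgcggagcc

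For Fabp1 the repeat starts 67 bases before the RefSeq start site, at the end of the 198 bases that precede both the RefSeq and the GENCODE start of the gene, printed here for context.
Fabp1 upstream, chr6:71199629-71199826, plus strand: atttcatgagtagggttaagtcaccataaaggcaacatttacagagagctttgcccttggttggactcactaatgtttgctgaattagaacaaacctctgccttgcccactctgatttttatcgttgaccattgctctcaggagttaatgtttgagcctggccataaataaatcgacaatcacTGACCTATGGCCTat
The LPS differences of the 4 genes were -1.44 for Fabp1, -0.83 for Etfa, -0.50 for Acot12 and -0.47 for Slc25a20, averaged over genotypes. All 4 passed, as did 30 of the 41 rows in the same direction.

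In the carnitine shuttle 2 of 4 rows fell on average over genotypes. Cpt1a, the outer-membrane carnitine palmitoyltransferase whose inhibition by malonyl-CoA controls entry, was 225 and 234 FPKM in untreated wild type, 177 in both LPS replicates, 232 and 223 in untreated transgenic, and 246 and 167 in transgenic with LPS. The last pair straddled the untreated values, and Cpt1a did not pass in any LPS comparison (average -0.27, SE 0.14, adjusted p = 0.179). Cpt2, the inner-membrane partner that hands acyl groups back to CoA, was 125 and 123 FPKM untreated and 78.9 and 71.7 with LPS in wild type, and 115 and 114 untreated and 41.4 and 59.8 with LPS in transgenic. Its groups did not overlap, and it fell by 0.71 in wild type (SE 0.19, adjusted p = 0.0355) and 1.18 in transgenic (SE 0.19, adjusted p = 0.00431). After centring on the hepatocyte markers its wild-type difference was -0.20 and did not pass (adjusted p = 0.49). Slc25a20, the carrier that exchanges acylcarnitine for carnitine, fell by 0.47 on average (SE 0.12, adjusted p = 0.0219). Crat, which makes short-chain carnitine esters, differed by -0.28 (SE 0.13, adjusted p = 0.132) and did not pass.

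Of the acyl-CoA dehydrogenases, the first enzymes of the mitochondrial spiral, 3 fell on average over genotypes and 1 did not pass. With the libraries centred on the hepatocyte markers, the average differences of those 3 were -0.34 for Acadvl, -0.28 for Acadl and -0.40 for Acadm, which did not pass (adjusted p = 0.0584, 0.101 and 0.0698). Acadvl, which acts on very long chains, had 251 to 315 FPKM untreated and 161 to 185 FPKM with LPS, and fell by 0.68 on average (SE 0.12, adjusted p = 0.00392). Acadl, for long chains, was 248 and 224 FPKM untreated and 157 and 149 with LPS in wild type, and 226 and 212 untreated and 137 and 149 with LPS in transgenic. Its difference was close in both genotypes, -0.62 in wild type (SE 0.15, adjusted p = 0.0244) and -0.61 in transgenic (SE 0.15, adjusted p = 0.0239). Centred on the hepatocyte markers, these differences were -0.11 and -0.45 and did not pass (adjusted p = 0.626 and 0.0994). Acadm, for medium chains, fell by 0.74 on average (SE 0.15, adjusted p = 0.00624). Acads, for short chains, whose values are identical to those of Gm13826, ranged from 216 to 253 FPKM untreated and 183 to 217 FPKM with LPS, and its average difference of -0.15 did not pass (SE 0.11, adjusted p = 0.317).

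Of the other 4 rows of the spiral, Hadha and Hadh fell on average over genotypes, and Acaa2 and Hadhb did not pass. Hadha, the alpha subunit of the trifunctional protein, which performs the last 3 steps on long chains, fell by 0.60 on average (SE 0.11, adjusted p = 0.00473). Hadh, the dehydrogenase for shorter chains, was 239 and 177 FPKM untreated and 165 and 153 with LPS in wild type, and 223 and 202 untreated and 65.5 and 106 with LPS in transgenic. It fell in transgenic by 1.34 (SE 0.26, adjusted p = 0.0085) and differed by -0.37 in wild type (SE 0.26, adjusted p = 0.333). Acaa2, the thiolase, fell in transgenic by 0.77 (SE 0.24, adjusted p = 0.0488), and its wild-type difference was -0.04 (SE 0.24, adjusted p = 0.921). The transgenic call was lost in 5 of the 8 fits with 1 library left out, and after centring on the hepatocyte markers (adjusted p = 0.103).

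Hadhb, the beta subunit of the same protein, gave no stable value. It has 2 rows in the table. The row with the higher sum, used here by the rule, held 77.0 and 22.7 FPKM in untreated wild type, 3.91 and 24.4 with LPS, 0.956 and 44.7 in untreated transgenic, and 43.6 and 40.1 in transgenic with LPS. Replicates of 1 group in it differed more than groups did. The other row held 24.2 and 25.8, 16.8 and 13.5, 23.9 and 27.4, and 14.6 and 17.4 FPKM in the same order, with all LPS libraries below all untreated ones, and fell by 0.67 on average (adjusted p = 0.00346). What sets the 2 rows apart is not given in the file. Hadha and Hadhb lie side by side on chromosome 5 on opposite strands (30118304 to 30155162 and 30155248 to 30184593, build GRCm38).

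All 3 auxiliary enzymes, which prepare double bonds for the spiral, fell on average over genotypes. Eci1 fell by 0.84 (SE 0.15, adjusted p = 0.00416), Decr1 by 0.82 (SE 0.13, adjusted p = 0.00242) and Ech1 by 0.74 (SE 0.14, adjusted p = 0.00464). Ech1 shares its row with the galectin genes Lgals4 and Lgals6, so its value is not that of Ech1 alone. The electron transfer flavoprotein, which takes electrons from the acyl-CoA dehydrogenases, and its oxidoreductase fell too. Etfa was 178 and 214 FPKM untreated and 116 and 109 with LPS in wild type, and 169 and 165 untreated and 87.0 and 94.5 with LPS in transgenic. The groups were well apart in both genotypes, and Etfa fell by 0.79 (SE 0.16, adjusted p = 0.0103) and 0.87 (SE 0.16, adjusted p = 0.00693). Its wild-type difference after centring on the hepatocyte markers was -0.28 and did not pass (adjusted p = 0.267). Etfdh fell by 0.78 on average (adjusted p = 0.00311), and Etfb, in a row shared with Cldnd2, by 0.52 (adjusted p = 0.0257).

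Peroxisomal genes fell in 7 of 9 rows on average over genotypes, and Acaa1b, Crot and Ehhadh had the largest falls among them. Ehhadh, which performs the middle steps of peroxisomal oxidation, was 836 and 1017 FPKM in untreated wild type and 432 and 243 with LPS, and 1000 and 898 in untreated transgenic and 392.5 and 357 with LPS. The highest LPS library lay well below the lowest untreated one, and Ehhadh fell, with differences of -1.50 in wild type (SE 0.28, adjusted p = 0.00696) and -1.34 in transgenic (SE 0.28, adjusted p = 0.0119). Hsd17b4, the other bifunctional enzyme, which handles branched chains and bile acid precursors, fell by 0.64 in wild type (SE 0.17, adjusted p = 0.0342) and 1.03 in transgenic (SE 0.17, adjusted p = 0.00485). Its wild-type difference was -0.13 with the centring on the hepatocyte markers and did not pass (adjusted p = 0.628).

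Crot, which makes the carnitine esters that leave the peroxisome, was 271 and 351 FPKM untreated and 185 and 125 with LPS in wild type, and 375 and 417 untreated and 93.2 and 121 with LPS in transgenic. It fell by 1.02 (SE 0.25, adjusted p = 0.0236) and 1.89 (SE 0.25, adjusted p = 0.00161). The wild-type difference did not pass after centring on the hepatocyte markers (-0.51, adjusted p = 0.187). The thiolase pair Acaa1a and Acaa1b share 92.9% of aligned transcript bases, and 34.0% of the 50-base windows of Acaa1a occur in Acaa1b, so reads may be split between them. Acaa1b, the more PPARalpha-responsive copy, was 1050 and 568 FPKM untreated and 455 and 328 with LPS in wild type, and 909.6 and 774 untreated and 206 and 229 with LPS in transgenic. It fell on average by 1.47 (SE 0.22, adjusted p = 0.00155), while Acaa1a differed by -0.57 (SE 0.19, adjusted p = 0.0526).

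Decr2, the peroxisomal dienoyl-CoA reductase, had 174 to 208 FPKM untreated and 95.9 to 121 FPKM with LPS and fell by 0.87 on average (SE 0.11, adjusted p = 0.000652). Pex11a, which divides peroxisomes, fell by 0.77 (SE 0.10, adjusted p = 0.000874), from 69.5 to 77.8 FPKM untreated to 37.7 to 44.3 FPKM with LPS. Eci2, an enoyl-CoA isomerase, fell by 0.40 (SE 0.11, adjusted p = 0.0279). Acot4, which shares its row with Acot3 and Acot5, ranged from 12.9 to 49.4 FPKM untreated and 12.1 to 23.7 FPKM with LPS and did not pass (adjusted p = 0.311).

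The microsomal Cyp4a genes, a cluster on chromosome 4 between 115486200 and 115621602 (GRCm38), did not move in 1 direction: on average over genotypes 2 fell, 1 rose and 1 did not pass. Cyp4a10 was 1827 and 1947 FPKM in untreated wild type and 609.5 and 389 with LPS, and 1103 and 1371 in untreated transgenic and 626 in both transgenic LPS replicates. All LPS values were below all untreated ones, with differences of -1.95 in wild type (SE 0.25, adjusted p = 0.00117) and -0.97 in transgenic (SE 0.25, adjusted p = 0.0252). The transgenic difference did not pass after centring on the hepatocyte markers (-0.81, adjusted p = 0.0766). Cyp4a14 was 4624 and 5535 FPKM untreated and 2190 and 1305 with LPS in wild type, and 4520 and 4420 untreated and 3136 and 2640 with LPS in transgenic. It fell by 1.58 in wild type (SE 0.28, adjusted p = 0.00585), and its transgenic difference of -0.64 did not pass (SE 0.28, adjusted p = 0.136).

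Cyp4a31 was the 1 member that rose. It was 20.7 and 27.4 FPKM untreated and 39.7 and 26.6 with LPS in wild type, and 16.1 and 21.1 untreated and 45.6 and 46.3 with LPS in transgenic. The wild-type groups overlapped (0.43, SE 0.23, adjusted p = 0.228), and in transgenic it rose by 1.27 (SE 0.23, adjusted p = 0.00734). Cyp4a32 was 29.6 and 54.8 FPKM untreated and 18.7 and 15.1 with LPS in wild type, and 18.5 and 28.3 untreated and 22.9 and 21.7 with LPS in transgenic. It fell in wild type by 1.21 (SE 0.31, adjusted p = 0.0274) and differed by -0.04 in transgenic (SE 0.31, adjusted p = 0.938). With the centring on the hepatocyte markers its wild-type difference did not pass (-0.70, adjusted p = 0.132).

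Near-identical transcripts limit the 2 low members of this cluster. Cyp4a31 aligned to Cyp4a10 at 95.7% identity and 12.8% of its 50-base windows occur in Cyp4a10, and Cyp4a32 aligned at 97.2% with 34.8% of its windows there. Cyp4a14 shared 0 such windows with the other 3. Of the summed FPKM of the 4 genes, Cyp4a31 held 0.285% to 0.362% untreated and 1.19% to 1.53% with LPS, and Cyp4a14 held 71.1% to 79.9% and 75.2% to 81.9%. How reads were shared among these copies was not tested.

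**Figure D2:**
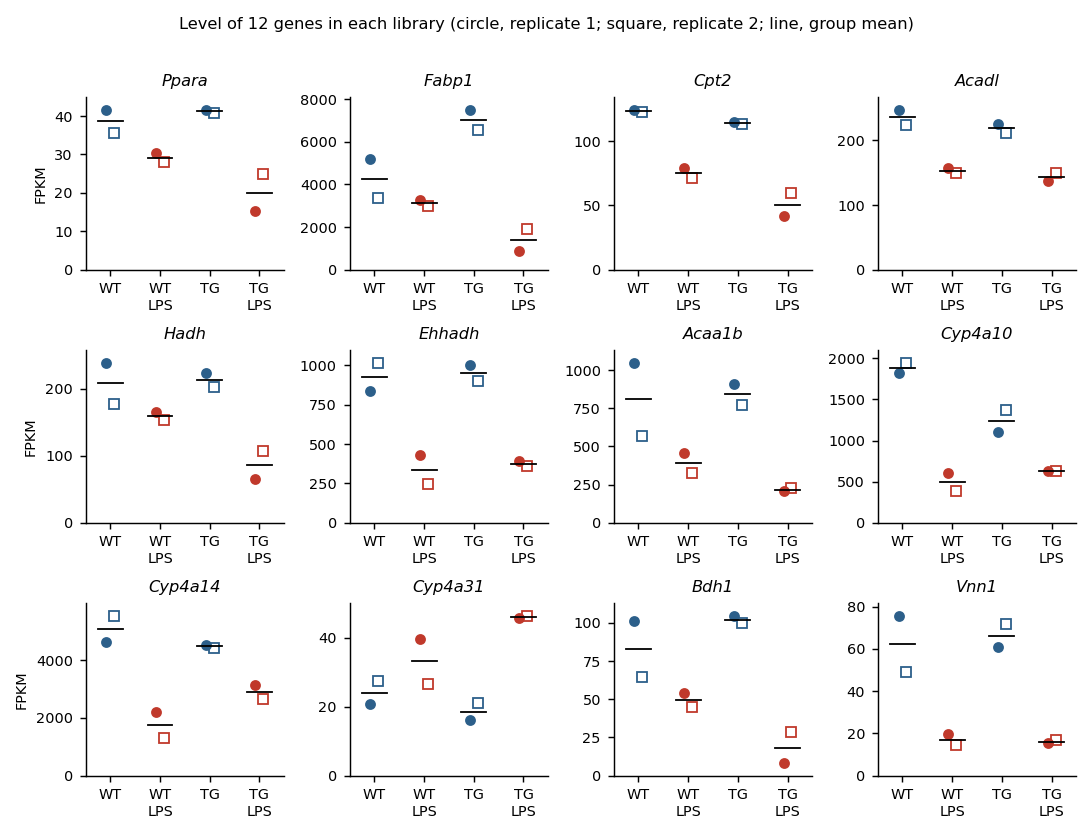
FPKM (vertical axis, from 0) of 12 genes in each library of the 4 groups, WT for wild type and TG for transgenic, with replicate 1 as circles, replicate 2 as squares and the group mean as a line. Fabp1, Hadh and Bdh1 are lowest in transgenic mice with LPS, Ehhadh and Vnn1 are at like levels in both LPS groups, and Cyp4a31 is highest in transgenic mice with LPS at 45.6 and 46.3 FPKM.

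Bdh1, which interconverts the ketone bodies acetoacetate and beta-hydroxybutyrate, was the ketogenic member. Its values were 101 and 64.6 FPKM in untreated wild type, 53.9 and 44.8 with LPS, 105 and 99.6 in untreated transgenic, and 8.28 and 28.3 in transgenic with LPS. All LPS values were below all untreated ones, and replicate 1 of transgenic with LPS was the lowest. Bdh1 fell in transgenic by 2.65 (SE 0.48, adjusted p = 0.00687) and differed by -0.71 in wild type (SE 0.48, adjusted p = 0.327).

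Of the 2 other targets, Vnn1 fell in both genotypes and Pdk4 did not pass. Vnn1, a pantetheinase anchored to the hepatocyte surface, was 75.7 and 48.9 FPKM untreated and 19.6 and 14.4 with LPS in wild type, and 60.7 and 71.6 untreated and 15.6 and 16.7 with LPS in transgenic. LPS and untreated libraries were far apart in both genotypes, with differences of -1.80 (SE 0.24, adjusted p = 0.00148) and -1.96 (SE 0.24, adjusted p = 0.00121). Pdk4, the kinase that shuts off pyruvate dehydrogenase in fasting, was 7.89 and 9.57 FPKM untreated and 3.70 and 3.42 with LPS in wild type, and 8.63 and 3.96 untreated and 11.8 and 6.49 with LPS in transgenic. Its differences, -1.09 (SE 0.35, adjusted p = 0.0606) and 0.50 (SE 0.35, adjusted p = 0.315), did not pass. Of the thioesterases, which cut acyl-CoA back to fatty acid and CoA, Acot12 fell in wild type by 0.83 (SE 0.20, adjusted p = 0.0233) and differed by -0.17 in transgenic (adjusted p = 0.573). Centred on the hepatocyte markers, its wild-type difference did not pass (-0.32, adjusted p = 0.289). The shared row of Acot1 and Acot2 differed by -0.94 on average (SE 0.33, adjusted p = 0.0587), with replicates at 98.1 and 49.1 FPKM in untreated wild type.

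The steps were then set side by side. In wild type 6 of 18 mitochondrial, 5 of 9 peroxisomal, 3 of 4 microsomal and 0 of 1 ketogenic rows fell, with medians of -0.52, -0.67, -1.40 and -0.71, against 5.41% of all features that fell. In transgenic 13 mitochondrial, 6 peroxisomal, 1 microsomal and 1 ketogenic rows fell, with medians of -0.75, -0.93, -0.34 and -2.65, and 1 microsomal row rose, against 10.5% of all features that fell. Centred on the hepatocyte markers, 0 mitochondrial, 1 peroxisomal, 2 microsomal and 0 ketogenic rows fell in wild type. By the same centring 8, 6, 0 and 1 of these rows fell in transgenic, and 1 microsomal row rose in each genotype. Of all 11463 features 4900 changed in wild type by that centring and 2764 in transgenic, of which 36 and 483 fell. The summed FPKM of mitochondrial rows was 3770 to 4552 untreated and 2240 to 3160 with LPS, that of peroxisomal rows 2848 to 3233 and 1192 to 1742, and that of microsomal rows 5658 to 7565 and 1736 to 3830. No LPS range of these 3 steps reached the untreated range. The same held for the hepatocyte marker sum (45199 to 65577 FPKM untreated and 39973 to 44829 FPKM with LPS). It also held for the sum of all features (439598 to 510011 FPKM untreated and 367131 to 415738 FPKM with LPS). The microsomal sum was lowest in wild type with LPS (2858 and 1736 FPKM), and the mitochondrial and peroxisomal sums were lowest in transgenic with LPS (2240 and 2521, and 1192 and 1261 FPKM). Differences between the steps were not tested.

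The genotypes themselves were compared next, in untreated mice, with LPS, and as the difference between their LPS responses. In untreated mice 0 of 41 rows passed in limma, and 0.0611% of all features did. At an unadjusted p under 0.05 there were 631 of all 11463 features (5.5%) and 3 of the 41 rows, namely Fgf21 at 1.31, Cyp4a10 at -0.62 and Cyp4a32 at -0.79 (transgenic minus wild type, adjusted p = 0.537, 0.852 and 0.836). With LPS 0 of 41 rows and 0% of all features passed, and 14 rows had an unadjusted p under 0.05, as had 1402 of all 11463 features (12.2%). Of these, Hadh differed by -0.92 (adjusted p = 0.302), Bdh1 by -1.61 and Fabp1 by -1.28 (both adjusted p = 0.331), and Cyp4a14 by 0.77 (adjusted p = 0.365).

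The LPS difference in transgenic minus that in wild type passed for 0 of 41 rows and 0.00872% of all features, and 11 rows had an unadjusted p under 0.05, as had 1189 of all 11463 features (10.4%). It was negative in 28 rows and positive in 13, with a median of -0.19 over the 41 rows and -0.06 over all features. The lowest values were -2.35 for Fgf21 (SE 0.49, adjusted p = 0.299), -2.02 for Fabp1 (SE 0.54, adjusted p = 0.41) and -1.94 for Bdh1 (SE 0.68, adjusted p = 0.437). It was positive in all 4 Cyp4a rows, at 0.98 for Cyp4a10, 0.95 for Cyp4a14, 0.84 for Cyp4a31 and 1.17 for Cyp4a32 (adjusted p = 0.437 to 0.475), and at 1.59 for Pdk4 (SE 0.49, adjusted p = 0.418). Centring on each library's median hepatocyte marker level turned 11 of the 13 positive values negative, those of all 4 Cyp4a rows among them (-0.04 to -0.37), and centring on gene-wise deviations of the markers turned 6, with the Cyp4a values at 0.49 to 0.82.

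The genotype comparisons with LPS depended on which library of transgenic with LPS was kept. Replicate 1 was below replicate 2 in 29 of 41 rows there, and above it in 36 rows in wild type with LPS, 30 in untreated transgenic and 25 in untreated wild type. Without replicate 2 of transgenic with LPS, 2.42% of all features passed for the difference between responses and 3.71% for transgenic against wild type with LPS. In that fit Bdh1, Fabp1 and Fgf21 passed for the difference between responses (-2.77, -2.58 and -2.92, adjusted p = 0.0192, 0.0219 and 0.0114), and Bdh1, Cpt2, Fabp1, Fgf21, Hadh and Ppara passed for transgenic against wild type with LPS. Without replicate 1, 0 rows passed in either, with 0.00881% and 0.185% of all features, and the values were -1.11, -1.47 and -1.78 (adjusted p = 0.638, 0.505 and 0.352).

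**Figure D3:**
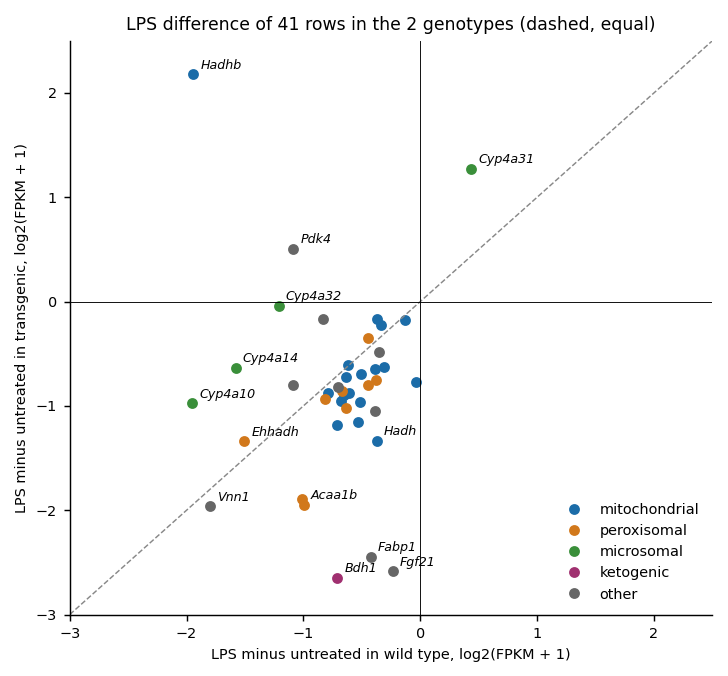
LPS minus untreated difference on the log2(FPKM + 1) scale in wild type (horizontal axis) and in transgenic mice (vertical axis) for each of 41 rows, coloured by step, with a dashed line where both are equal. In 28 rows the point lies below the line, and the 4 Cyp4a genes lie above it.

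To place the members in the wider pathway, 158 other genes of fatty acid handling were listed by role, of which 153 had a value and 141 rows were tested. On average over genotypes 70 of these fell and 9 rose, with a median of -0.38, against 15.8% and 20.6% of all features. In wild type 25 fell and 6 rose, where 5.41% of all features fell and 21.6% changed in either direction. In transgenic 48 fell and 10 rose, where 10.5% of all features fell and 26.5% changed. The median of these rows was -0.38 in wild type, where that of the hepatocyte markers was -0.44. In transgenic the 2 medians were -0.44 and -0.25. These rows were not read with the libraries centred on the hepatocyte markers. The counts by role that follow are again for the average over genotypes. Of 16 other mitochondrial rows 14 fell and 2 rose, and of 36 other peroxisomal rows 19 fell and 1 rose. Of 8 other ketone body rows 5 fell and 1 rose, of 12 other microsomal rows 8 fell and 2 rose, and of 18 rows of uptake and activation 10 fell and 1 rose. Of 24 rows of regulators and coregulators 2 fell and 1 rose, and of 27 rows of lipid droplets and other targets 12 fell and 1 rose.

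Regulators outside the 42 genes were read with them. Rxra, the partner of PPARalpha, differed by -0.32 (SE 0.13, adjusted p = 0.0849) and did not pass. Hnf4a, a master regulator of hepatocyte genes, fell by 0.58 on average (adjusted p = 0.0191), and in wild type it fell by 0.96 (adjusted p = 0.0157). Its transgenic difference of -0.21 did not pass (adjusted p = 0.512).

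On average over genotypes Acat1, the thiolase that starts ketone body synthesis, fell by 1.24 and Bdh2 by 0.71. The shared row of Cyp4a12a and Cyp4a12b fell by 1.85, and Aldh3a2, the fatty aldehyde dehydrogenase, fell by 1.40. Among lipid genes, Fabp2 fell by 1.77, Retsat by 1.44 and Fitm1 by 1.16. In mitochondria Hibch fell by 0.87, Pcca by 0.81 and Mut by 0.74, and in peroxisomes Nudt7 fell by 1.01, Cat, which encodes catalase, by 0.94, Scp2 by 0.92 and Pxmp4 by 0.76. Of the medium-chain activating enzymes, Acsm1 fell by 1.01, Acsm5 by 0.95 and Acsm3 by 0.87, and Tfam, the mitochondrial transcription factor, fell by 0.52. In wild type alone Acat1, Bdh2, Fitm1, Pcca, Nudt7, Cat, Acsm1, Acsm5, Acsm3 and Tfam did not pass. In transgenic alone Mut and Tfam did not pass. For all genes of this paragraph but Scp2 and Aldh3a2, replicate 1 of transgenic with LPS had the lowest value of all libraries.

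A few pathway genes rose with LPS instead. Cd36, a fatty acid translocase that macrophages and endothelium also make, was 16.8 to 20.5 FPKM untreated and 50.9 to 70.2 FPKM with LPS and rose by 1.60 (SE 0.14, adjusted p = 0.000116). Ucp2, an uncoupling protein homologue high in immune cells, rose by 1.91 (SE 0.18, adjusted p = 0.000146), from 7.31 to 13.3 FPKM untreated to 37.4 to 44.5 FPKM with LPS. Oxct1, the ketone body using enzyme that hepatocytes lack, rose by 1.29, from 1.57 to 2.37 FPKM untreated to 5.95 to 6.65 FPKM with LPS. Cyp4f18 rose by 1.81, from 0.343 to 0.733 FPKM untreated to 3.71 to 4.46 FPKM with LPS. The row of Cyp4f16 and Cyp4f37 rose by 1.09, from 0.305 to 0.691 FPKM to 2.13 to 2.38 FPKM. Both rows lay under 1 FPKM in every untreated library, so they passed the filter only through the LPS libraries. Scd1, the stearoyl-CoA desaturase, rose by 1.50 and passed in transgenic but not in wild type. Ppard rose by 0.47 and passed in neither genotype alone. The macrophage, neutrophil and endothelial markers given above rose in the same libraries. Adipose markers (6 of 6 with values) summed to 14.8 to 107 FPKM untreated and 91.5 to 152 FPKM with LPS, in ranges that overlapped. The part of any of these cell types in the rises was not tested.

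**Figure D4:**
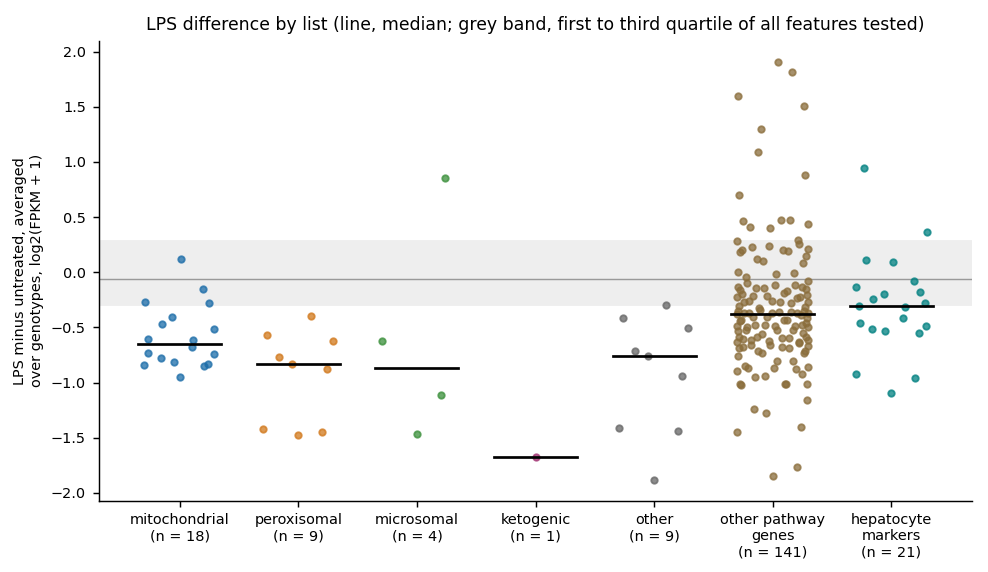
LPS minus untreated difference averaged over genotypes on the log2(FPKM + 1) scale (vertical axis) for each row of the members by step, of the other pathway genes and of the hepatocyte markers, with the median of each list as a black line and the middle quartiles of all features tested as a grey band. The medians are -0.65 for mitochondrial and -0.83 for peroxisomal members, -0.38 for other pathway genes and -0.31 for hepatocyte markers.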

How the data were processed

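RNA was measured by stranded mRNA sequencing of liver in 8 libraries. The authors deposited FPKM values, 1 column per library, which per the submitters' processing notes come from TopHat2 2.1.0, Bowtie2 2.2.6, Cufflinks and Cuffdiff 2.2.1 on build mm10. The annotation, and whether counting used strand, are not stated in the labels, and depth is unknown: low values share no clear step (11.0% to 63.2% of ratios in 1 peak).

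Of 24545 rows, 6197 were 0 throughout, 492 names were repeated (higher sum kept) and 549 sets of identical rows were joined, which left 17294 features. Features at 1 FPKM or more in 2 or more libraries (11463) were fitted as log2(FPKM + 1), with 1 mean per group over all 8 libraries, in limma 3.58.1 under R 4.3.3, with a mean-variance trend. There were 4 residual degrees of freedom. Tests were 2-sided with Benjamini-Hochberg adjustment over all features at 0.05. On simulated data with normal noise, 59 of 100 genes changed by 1 on the log2 scale were called in wild type. Of those changed by 2, 93 of 100 were called. No other genes were changed there, while 21.6% of all features changed in wild type in the data. These rates therefore need not carry over. Named genes were all 42 members, Rxra, and up to 4 per role of the other pathway genes with the largest change that passed on average over genotypes. Some genes that this rule names are not reported here. The members and lists were chosen with earlier results of these data known. Positions are from GENCODE vM21 (GRCm38, the assembly of mm10). Alternatives were other pseudocounts, filters, scalings, a replicate block, no trend, and each library left out.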

Additional observations from a re-analysis of the deposited data

How the results depend on the processing

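With a pseudocount of 0.1, no filter, a filter of 5 FPKM, or no mean-variance trend, the number of members passing stayed within 1.5 times in each comparison. Quantile normalization gave 7 in wild type, and of all features that changed 994 of 2453 were lower in wild type and 2453 of 4442 on average, against 620 of 2481 and 1813 of 4177 without it. Subtracting each library's median hepatocyte marker gave 4 in wild type (2 fell and 2 rose), 9 on average (8 fell and 1 rose) and 30 for the difference between responses, where 7800, 2981 and 9651 of all 11463 features passed. That median falls on different genes (Tat, Cps1 or Hpd) in different libraries, and it moved the median of all features to 0.88 in wild type and -1.27 for the difference between responses. Centring on gene-wise deviations of the same markers, added after seeing the data, gave 5 in wild type and 17 on average, with rises counted. Under the planned centring, on each library's median marker, wild-type differences turned to 0.31 for Acadl, 0.80 for Acads, 0.29 for Acadvl and 0.098 for Acot12. They turned to 0.22 for Cpt2, 0.25 for Decr1, 0.12 for Decr2 and 0.14 for Etfa. Those of Etfdh, Hsd17b4 and Pex11a turned to 0.27, 0.29 and 0.26. The difference between responses turned to -1.20 for Acadl, -1.10 for Crat and -1.11 for Eci2. The other Hadhb row, also added later, gave -0.65 in transgenic and -0.67 on average.

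Leaving out 1 library at a time gave 3 to 20 members in wild type, 11 to 30 in transgenic, 25 to 34 on average, 0 in untreated mice, 0 to 6 for genotype with LPS and 0 to 3 for the difference between responses. In these fits the lone library of a group is assumed to vary like the other groups. Calls kept in all 8 were 3 of 16 in wild type (Cyp4a10, Ehhadh and Vnn1), 9 of 27 in transgenic (Acaa1b, Bdh1, Cpt2, Crot, Fabp1, Fgf21, Hsd17b4, Pex11a and Vnn1) and 25 of 31 on average (lost at least once were Acot12, Acsl1, Creb3l3, Eci2, Etfb and Slc25a20). The replicate numbers share only a number (correlations of same-numbered deviations 0.043 to 0.459). With the replicate block 19 members passed in wild type, 27 in transgenic and 34 on average, where 24.2%, 28.9% and 39.6% of all features passed. Depth is unknown, so the counting error of low genes such as Fgf21 and Pdk4 could not be estimated, and 2 libraries a group limit every comparison.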
